A study of Danio rerio with 6 samples.

Results

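The genes described here are the neighbours of capn3b on zebrafish chromosome 20. A gene was taken where the midpoint of its span lay within 10 Mb of the midpoint of capn3b, on either side, and genes whose name starts with cyp2p, pdia6 and ahsa1a were left out. Of the 23354 genes of the table, 365 lay in that window and 358 remained after 7 were left out. Counts given below for the window cover these 358 genes unless stated otherwise. By annotation 327 of them were protein-coding, 9 were long intergenic RNAs, 9 were antisense RNAs and 13 were of other kinds.

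RNA was sequenced from dissected livers of adult zebrafish in 6 libraries, 3 labelled capn3b-/- mutant and 3 labelled wild type AB, AB being a laboratory strain. The series compares the genotypes, and its title speaks of calpain 3 depletion and the innate immune response. The labels do not give the sex of the fish, an age beyond adult, whether each library was a separate animal, how the mutation was made or the strain it was made in. P-values therefore measure the spread between these libraries, which may be technical.

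The gene capn3b encodes calpain 3, a calcium-dependent protease that cuts other proteins at a few sites. Genes that lie close together on a chromosome are inherited together, so a line kept for a mutation also keeps the stretch of chromosome around it from the fish in which the mutation arose. Nearby genes can also share regulatory sequence and rise or fall together. Effects of the mutation and of linked sequence on a neighbour cannot be told apart when mutant fish are compared with a wild type strain.

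Levels are FPKM, a read count corrected for the length of the gene and the depth of the library. Whole reads were recovered from them and set the depth at 16858409 to 19492592 reads a library, up to a whole factor described below. The window held 1.33 to 1.58% of the reads of a mutant library and 1.68 to 2.35% of those of a wild type library. Its share of all FPKM was 0.848 to 0.89% in the mutant libraries and 0.831 to 0.954% in the wild type libraries. These FPKM shares overlapped between the genotypes. In a library 290 to 323 of its genes were above 0. Of the 358 genes, 175 reached 1 FPKM in at least 3 of the 6 libraries and were tested, and 183 were below that filter. Across the whole table, macrophage markers (6 of 11 tested) and neutrophil markers (4 of 5 tested) rose in the mutant and erythrocyte markers (5 of 7 tested) fell. Of 5 tested biliary markers 1 rose, and the list summed to 571 to 721 FPKM in the mutant libraries and 440 to 446 FPKM in the wild type libraries. None of 12 tested exocrine pancreas markers or 2 tested lymphocyte markers was called. The pancreas list varied widely within a genotype, from 244 to 853 FPKM in the mutant libraries and 243 to 1708 FPKM in the wild type libraries. The source of that spread was not tested. Every gene of the table was above 0 in some library, and some listed markers were not in the table and have no value here. Of 12 listed erythrocyte markers 8 were in it, and hbaa2, hbba1, hbba2 and hemgn were not. The 13 hepatocyte markers in the table summed to 153800 to 160800 FPKM in the mutant libraries and 149300 to 160700 FPKM in the wild type libraries, of which 1 rose and 1 fell. Mitochondrial transcripts took 4.47 to 5.48% of all FPKM in the mutant libraries and 6.25 to 8.61% in the wild type libraries.

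The mutated gene itself was not detectable as expressed at this depth. For capn3b (ENSDARG00000043035, chr20:26056028-26102200, with coordinates as deposited; the submitters' processing notes name GRCz11), the mutant libraries gave 0, 0 and 1 recovered reads and the wild type libraries gave 0 reads each. A floor of 3 reads corresponds to 0.0514 to 0.0594 FPKM. The counts give no check of the genotype labels. The deposited event lists carry a capn3b transcript at 0, 0.0671 and 0.0571 FPKM in the mutant libraries and at 0.034, 0 and 0 FPKM in the wild type libraries, values of the order of that floor.

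The genes that flank capn3b did not pass the test. On the lower-coordinate side the 3 nearest were znf106b, which overlaps capn3b, churc1 and ttbk2b. Among them churc1, a small zinc-binding protein gene, was the one above the filter, at 8.86, 9.67 and 11.5 FPKM in the mutant libraries and 9.0, 6.81 and 9.09 FPKM in the wild type libraries. Its libraries overlapped between the genotypes, and its log2 fold change was 0.25 with an adjusted p of 0.372 (limma). On the higher-coordinate side, nrbp1, an adaptor related to protein kinases, had a log2 fold change of 0.22 and an adjusted p of 0.377. For gtf2h5, a subunit of the repair and transcription factor TFIIH, the log2 fold change was -0.19 with an adjusted p of 0.547. For serac1, a protein of lipid exchange between mitochondria and the endoplasmic reticulum, it was 0.14 with an adjusted p of 0.699. The libraries of the genotypes overlapped for all of these genes, and ttbk2b and znf106b were below the filter.

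Across the window, 17 of the 175 tested genes passed an adjusted p of 0.05, which is 9.71%, against 11.4% of all 11164 tested genes. Of the 17, 11 were higher in the mutant, where 5.91% of all tested genes were called higher, and 6 were lower, where 5.45% of all tested genes were called lower. A change of at least 2-fold was called for 12 genes, 6.86%, against 5.58% of all tested genes. The falls and the 2-fold calls include slc22a16 and si:dkey-156m18.1, which reached the filter through the wild type libraries alone. For the genes kept by the rule, the share past the threshold was thus no larger than in the table as a whole. That of 2-fold changes was slightly larger. Both shares were larger with the genes left out by the rule, as given below, and these differences were not tested. The libraries of the genotypes did not overlap for 56 of the 175 genes, 32.0%, against 33.8% over all tested genes. At an unadjusted p under 0.05 the window held 49 genes, 28%, against 28.2%. Typical changes were small: the median absolute log2 fold change was 0.21 in the window and 0.24 over all tested genes.

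The count depended on single libraries. It was 9 without mutant replicate 1 and 7 without mutant replicate 2. It was 11 without wild type replicate 1 and 6 without wild type replicate 2. In each of these fits the share in the window lay close to that of the other genes, for example 3.43% against 3.71% without wild type replicate 2. The split of 11 higher and 6 lower became 10 and 11 when libraries were scaled to the same median, and 12 and 10 after quantile normalization. Those scalings shifted the median of all genes by -0.05 on the log2 scale.

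Other stretches of the genome gave shares on both sides of that in the window. The rest of chromosome 20 had 36 of 266 tested genes past the threshold, 13.5%. Whole chromosomes lay between 6.67% for chromosome 11 and 15.1% for chromosome 24, and chromosome 20 as a whole was at 13.2%. For changes of at least 2-fold, chromosome 20 as a whole had the highest share of the 25 chromosomes, 37 of 447 tested genes or 8.28%. The others lay between 3.57% and 7.72%, and the rest of chromosome 20 was at 7.14%. The whole chromosome includes the genes left out by the rule, and these differences were not tested. With the 7 genes that the rule leaves out, 23 of 181 tested genes of the window passed, 12.7%. A change of at least 2-fold was called for 18 of these 181 genes, 9.94%, against 5.58% of all tested genes. Of those 7 genes 6 were tested and 6 passed, 1 higher and 5 lower in the mutant.

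**Figure D1:**
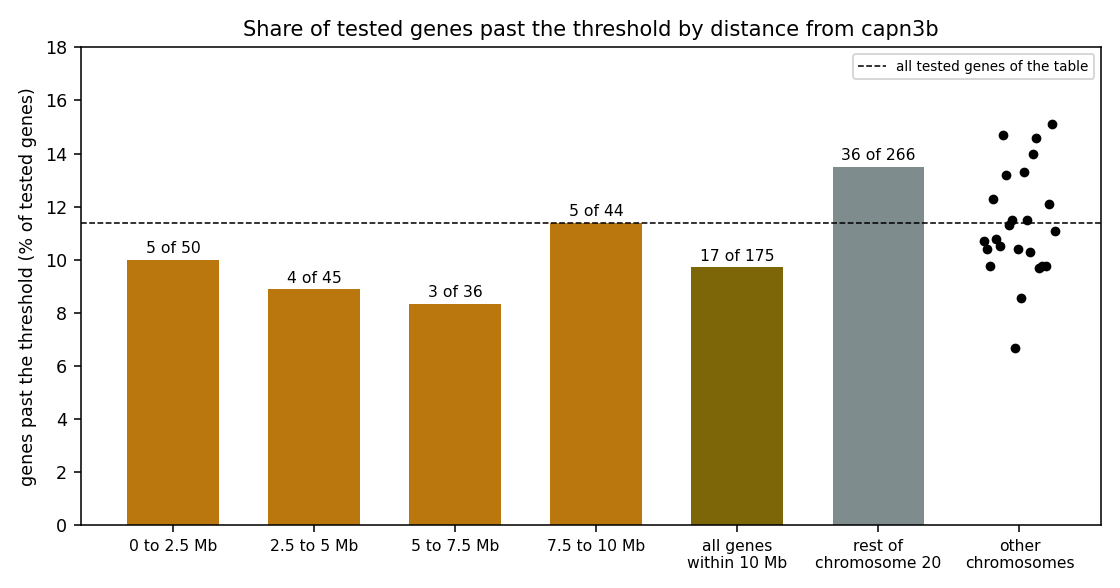
Share of tested genes past an adjusted p of 0.05 (y axis, % of tested genes) by distance from capn3b (bars, with counts), for the whole window, for the rest of chromosome 20 and for each other chromosome (1 point each, spread sideways in order of chromosome number only to separate them). The bars of the window do not count the genes left out by the rule. They lie between 8.33% and 11.4%, and the dashed line marks the 11.4% of all tested genes.

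Among the genes kept by the rule, distance from capn3b did not order the share of genes called. Within 2.5 Mb, 5 of 50 tested genes passed, between 2.5 and 5 Mb 4 of 45, between 5 and 7.5 Mb 3 of 36 and between 7.5 and 10 Mb 5 of 44. These are 10%, 8.89%, 8.33% and 11.4% of the tested genes. Without wild type replicate 2 the counts were 3, 1, 1 and 1, and without mutant replicate 2 they were 3, 1, 2 and 1. The nearest bin had the smallest median absolute log2 fold change, 0.15, and all 5 of its called genes changed at least 2-fold. From the nearest to the farthest bin the 2-fold shares were 10%, 4.44%, 5.56% and 6.82%, against 5.58% of all tested genes. These differences were not tested, and no bin was counted with the genes left out by the rule. On the lower-coordinate side 9 of 77 tested genes passed, 11.7%, and on the higher-coordinate side 8 of 98, 8.16%. Calls of at least 2-fold were 9.09% on the lower side and 5.1% on the higher side. An unadjusted p under 0.05 (limma) was found for 36.4% and 21.4%, against 28.2% of all tested genes. Libraries did not overlap for 37.7% and 27.6%, against 33.8%. The difference between the sides was not tested.

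**Figure D2:**
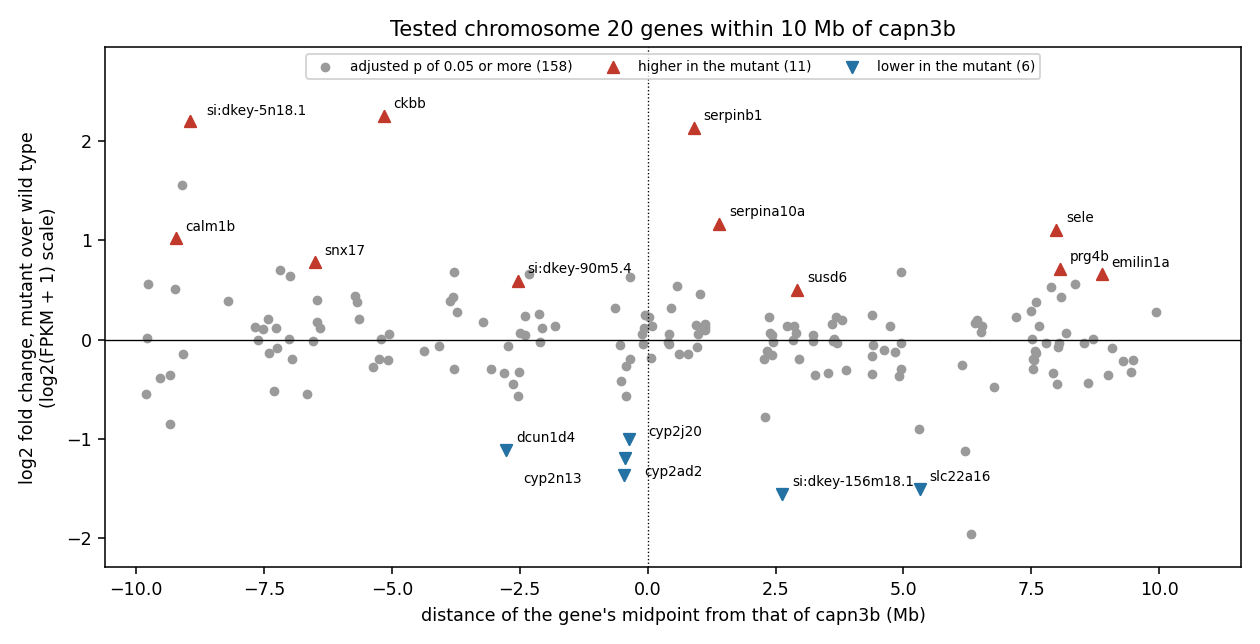
Log2 fold change on the log2(FPKM + 1) scale (mutant over wild type, y axis) of the 175 tested genes against the distance of each gene's midpoint from that of capn3b (x axis, Mb; negative values are lower coordinates). The 11 genes called higher (triangles up) and the 6 called lower (triangles down) are spread over both sides, and the 3 called lower nearest to capn3b are cytochrome P450 genes.

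Among the genes kept by the rule, adjacent genes were rarely called together. Of 174 pairs of tested genes that follow each other in the window, 55.7% had the same sign of change, against 53.3% of 11016 such pairs over the table. Both genes were called in 1 pair of the window, 0.575%, against 1.84% over the table. The pairs of the window leave out the 6 tested genes removed by the rule, all of which passed. The pairs over the table include those genes, so the shares are not fully alike. The correlation of log2 fold changes across adjacent pairs was 0.185 in the window and 0.11 over the table, as a description across genes that share the same 6 libraries.

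A group of 6 cytochrome P450 genes of family 2 lay 372 to 459 kb from capn3b on the lower-coordinate side. Family 2 enzymes are haem monooxygenases that oxidise fatty acids, drugs and other small molecules, and liver is a main site of their expression. Of the 6 genes, 5 were tested, all 5 had a negative log2 fold change and 3 fell, with a median of -1.01. Over all tested genes 5.45% were called lower. Of 20 tested family 2 genes elsewhere in the table, those named cyp2p not counted, 15 had a negative log2 fold change. Of these 20 genes 1 rose and 5 fell, and their median was -0.41. Members of this family resemble each other in sequence, so reads may have been split between them, and several spans overlap.

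The gene cyp2n13 (ENSDARG00000042953, chr20:25616169-25623821) was at 15.3, 21.4 and 26.9 FPKM in the mutant libraries and at 65.8, 56.2 and 44.8 FPKM in the wild type libraries. Every mutant library was below every wild type library. Its mean was 2.62-fold lower in the mutant, with a log2 fold change of -1.37 ± 0.23 (SE, n = 3 each) and an adjusted p of 0.0125 (limma). Without wild type replicate 2 the adjusted p was 0.0541.

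The most abundant of the group was cyp2ad2 (ENSDARG00000021172, chr20:25635579-25643093), at 135, 117 and 179 FPKM in the mutant libraries and 436, 317 and 252 FPKM in the wild type libraries. The groups did not overlap. It was 2.33-fold lower in the mutant, with a log2 fold change of -1.20 ± 0.24 and an adjusted p of 0.0206. The adjusted p was 0.0663 when either mutant replicate 1 or 2 was left out, 0.0712 without wild type replicate 2 and 0.0598 with no filter. Its span overlaps that of cyp2v1, which had a log2 fold change of -0.27 and an adjusted p of 0.471.

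The least abundant gene called in the group, cyp2j20 (ENSDARG00000094057, chr20:25698437-25716712), had 1.1, 1.74 and 1.55 FPKM in the mutant libraries and 3.88, 3.98 and 3.92 FPKM in the wild type libraries. The wild type libraries lay close together and all above the mutant ones. It was 2.68-fold lower in the mutant, with a log2 fold change of -1.01 ± 0.14 and an adjusted p of 0.00724. Its call held in all 13 alternatives in which it was tested, and its span overlaps that of si:dkey-183n20.2. Between these genes lies cyp2ad3, with 37.8, 27.5 and 36.7 FPKM in the mutant libraries and 63.3, 44.4 and 45.9 FPKM in the wild type libraries. Its libraries did not overlap either, but at a log2 fold change of -0.57 it had an adjusted p of 0.101. The sixth gene, cyp2ad6, was below the filter.

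**Figure D3:**
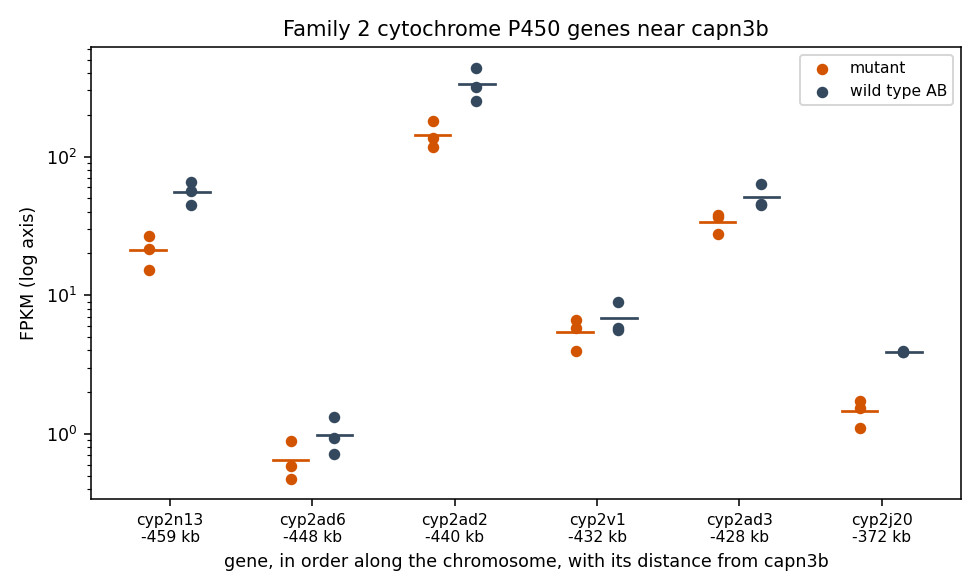
FPKM (log axis) of the 6 family 2 cytochrome P450 genes in order along the chromosome, with 1 point a library, mutant left of wild type AB, and a line at each mean. The mutant mean is below the wild type mean for all 6 genes. For cyp2n13, cyp2ad2, cyp2ad3 and cyp2j20 the libraries do not overlap, where 33.8% of all tested genes did not overlap. Of these, cyp2n13, cyp2ad2 and cyp2j20 were called by p-values (limma) from these same values, so their lack of overlap is no separate result.

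The window holds 3 serpin genes, of which 2 were tested and both rose, beside 4 rises and 0 falls among 14 tested serpin genes elsewhere. Serpins are proteins that trap and inactivate serine proteases. The larger change was that of serpinb1 (ENSDARG00000055416, chr20:26981578-26987759), which in mammals inhibits the elastase of neutrophils.

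Levels of serpinb1 were 288, 402 and 179 FPKM in the mutant libraries and 62.2, 53.6 and 70.7 FPKM in the wild type libraries. The lowest mutant library was more than 100 FPKM above the highest wild type library. Its mean was 4.66-fold higher in the mutant, with a log2 fold change of 2.14 ± 0.28 and an adjusted p of 0.00582, and the call held in all 14 alternatives. In the same libraries the neutrophil markers summed to 24.2 to 60.7 FPKM in the mutant and 7.27 to 12.4 FPKM in the wild type. Their part in this result was not tested, and in whole liver, more cells of a type and more RNA per cell cannot be told apart.

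The other was serpina10a (ENSDARG00000005924, chr20:27472304-27482616), named for an inhibitor of clotting factor X in humans. It was at 12.1, 12.4 and 12.3 FPKM in the mutant libraries and 5.38, 6.66 and 3.22 FPKM in the wild type libraries, without overlap. It was 2.41-fold higher in the mutant, with a log2 fold change of 1.17 ± 0.22 and an adjusted p of 0.0168. The adjusted p was 0.053 without mutant replicate 1, 0.0542 without mutant replicate 2 and 0.0509 with no filter. Its span overlaps that of ppp4r4.

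Further rises were called for a selectin, a proteoglycan and an elastic fibre gene. The selectin gene sele (ENSDARG00000009123, chr20:34066551-34074289) encodes a lectin by which, in mammals, vessel walls catch leukocytes. It had 5.23, 6.35 and 4.99 FPKM in the mutant libraries and 2.96, 1.58 and 1.66 FPKM in the wild type libraries, with every mutant library the higher. The change was 2.67-fold, with a log2 fold change of 1.11 ± 0.20 and an adjusted p of 0.0143. Without mutant replicate 2 the adjusted p was 0.0503, and without wild type replicate 2 it was 0.0569. None of 5 tested endothelial markers was called, and these markers summed to 21.4 to 23.2 FPKM in the mutant libraries and 21.5 to 24.1 FPKM in the wild type libraries. Macrophage markers summed to 378 to 588 FPKM in the mutant and 229 to 369 FPKM in the wild type, and the part of blood cells in this result was not tested.

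A secreted proteoglycan, prg4b (ENSDARG00000028163, chr20:34126941-34136759), known from joints as a lubricant, was at 216, 201 and 189 FPKM in the mutant libraries and 134, 97.1 and 141 FPKM in the wild type libraries. The groups did not overlap, and the log2 fold change was 0.71 ± 0.17 with an adjusted p of 0.0377. The call was lost in 7 of 14 alternatives, at adjusted p of up to 0.123, when any library but wild type replicate 3 was left out among them.

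The elastic fibre glycoprotein gene emilin1a (ENSDARG00000024537, chr20:34942793-34962152) had 4.13, 3.86 and 4.49 FPKM in the mutant libraries and 2.66, 2.21 and 1.97 FPKM in the wild type libraries. All mutant libraries were above all wild type libraries, and the log2 fold change was 0.66 ± 0.14 with an adjusted p of 0.0238. The call was lost in 7 of 13 alternatives, at adjusted p of up to 0.0779, among them leaving out any library but wild type replicate 1. The spans of prg4b and emilin1a overlap those of tprb and stmn4. None of 5 tested stellate and fibroblast markers was called, but all 5 had a positive log2 fold change, with a median of 0.79. Their list summed to 14.5 to 30.3 FPKM in the mutant libraries and 9.50 to 13.5 FPKM in the wild type libraries, without overlap. The part of such cells in the rises of prg4b and emilin1a was not tested.

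Rises of over 5-fold in mean FPKM were called for a C1q-type gene and a creatine kinase. The gene si:dkey-5n18.1 (ENSDARG00000043436, chr20:17139320-17141442) is annotated in the deposited table as a complement C1q-like protein. It was at 25.1, 43.4 and 21.5 FPKM in the mutant libraries and 5.13, 3.07 and 9.59 FPKM in the wild type libraries, and the groups did not overlap. It was 5.06-fold higher in the mutant, with a log2 fold change of 2.21 ± 0.38 and an adjusted p of 0.0127, a call that held in all 14 alternatives.

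Creatine kinase b of the brain type, ckbb (ENSDARG00000043257, chr20:20917074-20922116), which buffers ATP through creatine phosphate, had 9.07, 8.33 and 28.5 FPKM in the mutant libraries and 1.04, 2.03 and 3.10 FPKM in the wild type libraries. The groups did not overlap, but mutant replicate 3 stood well above the other mutant libraries. The change was 7.44-fold with that library and 4.23-fold without it, and the log2 fold change was 2.26 ± 0.45 with an adjusted p of 0.0207. The adjusted p was 0.0561 without wild type replicate 1, 0.0744 without wild type replicate 2 and 0.0681 with no filter.

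The remaining rises were smaller. The calmodulin gene calm1b (ENSDARG00000034187, chr20:16843473-16875675), for a calcium sensor, had 6.01, 6.79 and 6.65 FPKM in the mutant libraries and 2.81, 1.64 and 3.96 FPKM in the wild type libraries. Without overlap between the groups, its log2 fold change was 1.02 ± 0.22 with an adjusted p of 0.0272. The call was lost in 6 of 14 alternatives, at adjusted p of up to 0.0846, and leaving out any library but wild type replicate 3 was enough. The sorting nexin gene snx17 (ENSDARG00000091418, chr20:19536583-19612117), for a protein that returns receptors from endosomes to the cell surface, had 7.30, 9.89 and 5.64 FPKM in the mutant libraries and 4.02, 3.61 and 4.13 FPKM in the wild type libraries. The groups did not overlap, the log2 fold change was 0.78 ± 0.19 and the adjusted p was 0.039. That call was lost in 7 of 14 alternatives, at adjusted p of up to 0.124, among them leaving out any library but mutant replicate 3.

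The sushi domain gene susd6 (ENSDARG00000030116, chr20:28983111-29029159) was at 13.6, 14.1 and 12.6 FPKM in the mutant libraries and 9.0, 9.07 and 9.60 FPKM in the wild type libraries. Both groups were tight and apart, at a log2 fold change of 0.50 ± 0.13 and an adjusted p of 0.0421, and the call was lost in 9 of 14 alternatives, at up to 0.131, leaving out any of the 6 libraries among them. The abundant gene si:dkey-90m5.4 (ENSDARG00000029388, chr20:23541634-23545553), annotated in the deposited table as a phospholipase A2 inhibitor, was at 939, 837 and 830 FPKM in the mutant libraries and 566, 595 and 564 FPKM in the wild type libraries. The groups were well apart for their spread, with a log2 fold change of 0.59 ± 0.12 and an adjusted p of 0.0211. This call was lost in 8 of 14 alternatives, at up to 0.0833, among them leaving out any library but mutant replicate 3. Its span overlaps that of slc10a4, which had a log2 fold change of -0.58 and an adjusted p of 0.0746.

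The remaining 3 falls lay outside the cytochrome P450 group. The transporter gene slc22a16 (ENSDARG00000015869, chr20:31384477-31402624), which in humans carries carnitine and other organic cations, had 0.190, 0.228 and 0.233 FPKM in the mutant libraries and 2.89, 2.38 and 2.18 FPKM in the wild type libraries. In recovered reads these were 15, 18 and 19 against 248, 181 and 162. Its mean was 11.4-fold lower in the mutant, with a log2 fold change of -1.51 ± 0.14 and an adjusted p of 0.00204. It reached the filter of 1 FPKM through the wild type libraries alone, so that a gene kept in this way had to differ, and with no filter its adjusted p was 0.0141. The call held in all 13 alternatives in which it was tested, and its span overlaps that of hpcal1.

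A short processed transcript, si:dkey-156m18.1 (ENSDARG00000094475, chr20:28708393-28709443), lies within the span of rgs6. It had 0.237, 0.237 and 0.115 FPKM in the mutant libraries and 2.17, 2.21 and 3.27 FPKM in the wild type libraries. These levels rest on 2, 2 and 1 reads in the mutant libraries, against 20, 18 and 26 reads in the wild type ones, so its 13.0-fold difference in means is imprecise. The groups did not overlap, the log2 fold change was -1.56 ± 0.17 and the adjusted p was 0.00347. This gene too passed the filter through the wild type libraries alone, and with no filter its adjusted p was 0.0178. The call held in all 13 alternatives in which it was tested.

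The gene dcun1d4 (ENSDARG00000092394, chr20:23304846-23327353), a helper in the attachment of NEDD8 to cullins, had 3.86, 2.19 and 5.09 FPKM in the mutant libraries and 11.5, 8.87 and 6.81 FPKM in the wild type libraries. Its groups did not overlap, and the log2 fold change was -1.12 ± 0.27 with an adjusted p of 0.036. The call was lost in 6 of 14 alternatives, at up to 0.109, among them leaving out any library but the replicate 3 of either genotype.

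**Figure D4:**
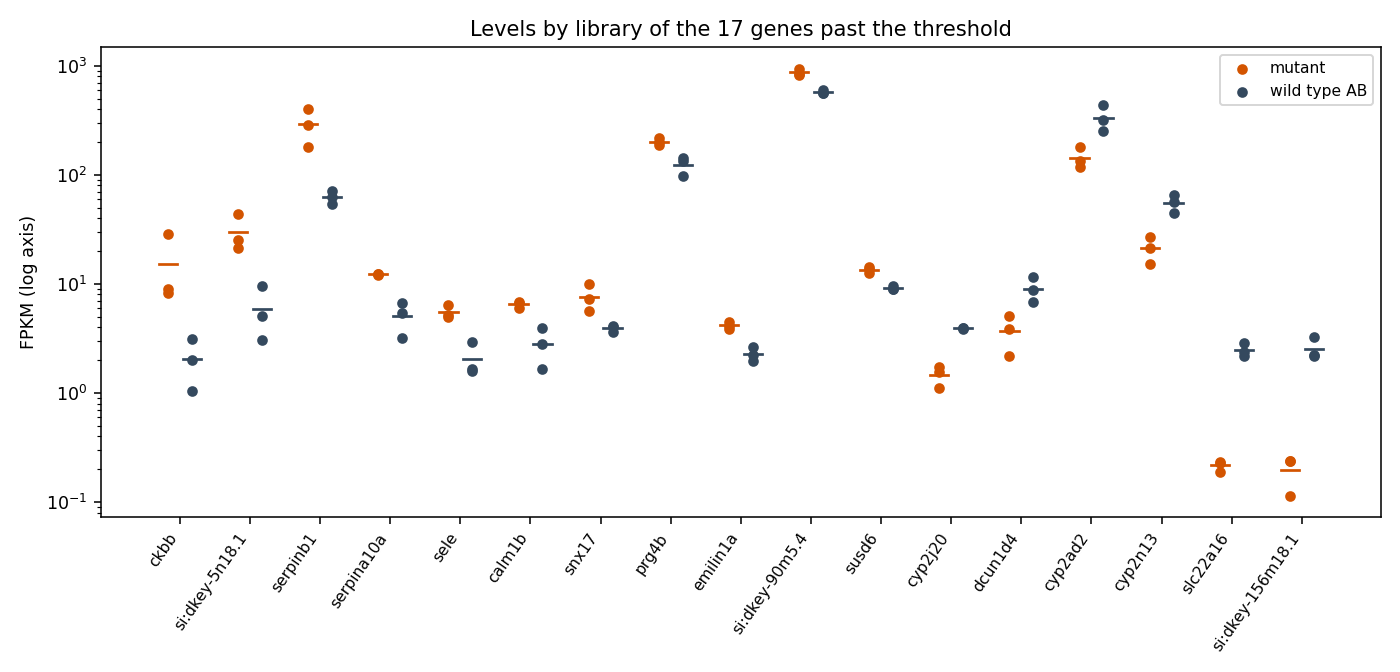
FPKM (log axis) of the 17 genes past an adjusted p of 0.05, in order of log2 fold change, with 1 point a library, mutant left of wild type AB, and a line at each mean. For all 17 genes the libraries of the genotypes do not overlap, against 33.8% of all tested genes. The 17 were chosen by p-values from these same values, so the lack of overlap is no separate result. The lowest levels are those of slc22a16 and si:dkey-156m18.1 in the mutant.

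By mean FPKM over all libraries the 8 highest were rps7, apobb.1, si:dkey-90m5.4, cyp2ad2, serpinb1, chac1, prg4b and tdh. Of these 8 genes 4 passed, as described above, where 11.4% of all tested genes were called. The ribosomal protein gene rps7 averaged 1123 ± 80 FPKM in the mutant and 1258 ± 85 FPKM in the wild type (SD, n = 3 each), with overlapping libraries and an adjusted p of 0.424. The apolipoprotein B gene apobb.1, for the scaffold protein of very low density lipoprotein, was at 505, 466 and 747 FPKM in the mutant libraries and 1426, 947 and 851 FPKM in the wild type libraries. Those groups did not overlap, and at a log2 fold change of -0.90 ± 0.25 the adjusted p was 0.0533. It fell under 0.05 in 4 of 14 alternatives, the lowest being 0.0307.

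Also without a call were chac1 and tdh. The gene chac1, for an enzyme that breaks down glutathione, had 65.3, 183 and 131 FPKM in the mutant libraries and 134, 280 and 212 FPKM in the wild type libraries. For tdh, an enzyme of threonine breakdown, the values were 126, 278 and 67.8 FPKM in the mutant libraries and 83.8, 112 and 66.5 FPKM in the wild type libraries. Both genes varied more within a genotype than most, with overlapping libraries and adjusted p of 0.247 for chac1 and 0.412 for tdh. Of the alternatives, the replicate number as a block called chac1, at an adjusted p of 0.0445, and none called tdh.

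**Figure D5:**
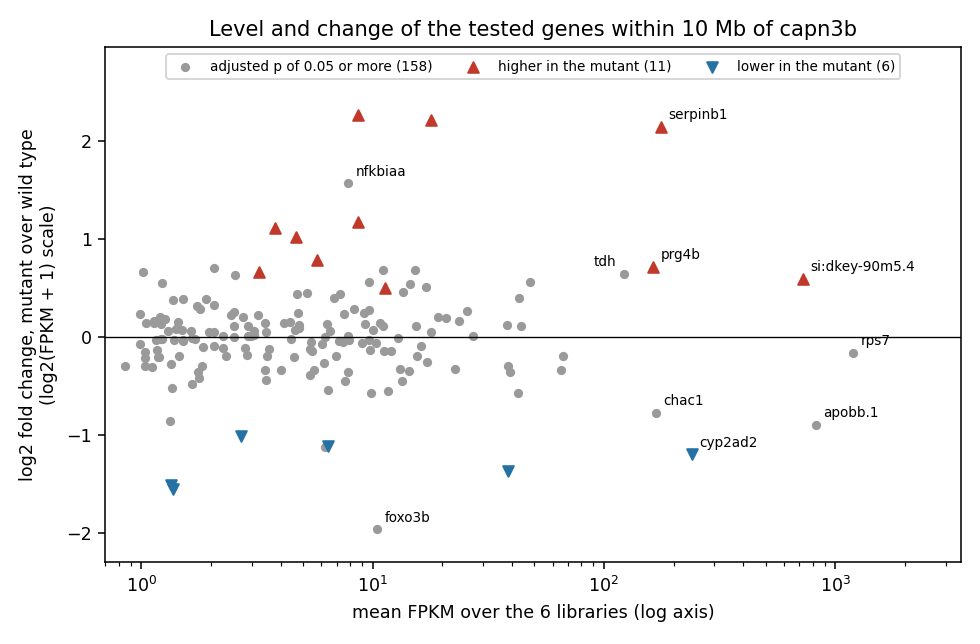
Log2 fold change on the log2(FPKM + 1) scale (mutant over wild type, y axis) of the 175 tested genes of the window against mean FPKM over the 6 libraries (x axis, log). Calls in both directions occur at low and at high levels, and rps7, apobb.1, chac1 and tdh are abundant genes without a call.

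Several genes with large differences missed the threshold. These were picked out after their values were seen. The forkhead transcription factor gene foxo3b had the lowest log2 fold change of the window, -1.97 ± 0.54, at an adjusted p of 0.0533. It was at 2.44, 1.55 and 7.01 FPKM in the mutant libraries and 6.69, 25.1 and 19.9 FPKM in the wild type libraries, so that mutant replicate 3 overlapped wild type replicate 1. Its adjusted p was under 0.05 in 6 of 14 alternatives, the lowest being 0.0236.

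The gene sesn1, a stress-inducible regulator of growth signalling that lies near foxo3b, had 4.36, 1.77 and 4.52 FPKM in the mutant libraries and 9.08, 12.3 and 5.29 FPKM in the wild type libraries. Its libraries did not overlap, and the log2 fold change was -1.12 ± 0.34 with an adjusted p of 0.0743. Without wild type replicate 3 the adjusted p was 0.0442. The gene nfkbiaa, for an inhibitor of the immune transcription factor NF-kB, had 5.0, 23.9 and 9.20 FPKM in the mutant libraries and 2.84, 3.13 and 2.71 FPKM in the wild type libraries. Mutant replicate 2 held its highest value, and the log2 fold change was 1.56 ± 0.44 with an adjusted p of 0.0601. Without mutant replicate 1 the adjusted p was 0.0269, and without mutant replicate 2 the fold in mean FPKM was 2.45 in place of 4.38.

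Also picked out in this way were 3 genes of the secretory pathway, with smaller values. They do not stand for that pathway, whose genes in the window were not listed as a set. Changes were negative for scfd2, annotated as a Sec1 family gene (log2 fold change -0.29, adjusted p 0.227), and srd5a3, annotated as a polyprenol reductase (-0.30, adjusted p 0.354). Of the 3 genes picked out, the endoplasmic reticulum stress sensor atf6 had a log2 fold change of 0.53 ± 0.15 and an adjusted p of 0.0542. For sel1l, an adaptor that passes misfolded proteins to degradation, it was 0.46 ± 0.15 with an adjusted p of 0.0856. For tmem165, a Golgi membrane protein needed for glycosylation, it was 0.68 ± 0.18 with an adjusted p of 0.0505. Of 14 alternatives, 6 called tmem165 (lowest adjusted p 0.0383), 3 called atf6 (lowest 0.0408) and none called sel1l. The libraries of the genotypes did not overlap for atf6, sel1l and tmem165, nor for scfd2, where 33.8% of all tested genes did not overlap.

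Of the 183 genes below the filter, none had 0 reads in every library of one genotype and more than 3 in every library of the other. The libraries did not overlap for 26 of them, 14.2%, against 14.9% of all genes below the filter. When all 23354 genes were tested with no filter, 9 of the 358 genes of the window passed, 2.51%, against 2.53% of all genes. Of the 183 genes of the window below the filter 2 passed, where 90 of all 12190 genes below it did, 0.738%. One was gpr132b, a G protein-coupled receptor gene, with 27, 24 and 35 reads in the mutant libraries, against 5, 0 and 3 reads in the wild type ones, at an adjusted p of 0.0224. The other was CDC42BPA, a kinase that acts with the small GTPase CDC42, with 19, 32 and 35 reads in the mutant libraries, against 93, 101 and 99 reads in the wild type ones, at an adjusted p of 0.0456. Both sets of reads lay apart between the genotypes, at levels of about 1 FPKM or less.

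Exon use was compared through percent inclusion, the FPKM of transcripts with an exon over that of transcripts with and without it. In the window 30 exon skipping events in 26 genes reached the level asked for, of which 16 varied between libraries and could be fitted. None of these events of the window passed the threshold or an unadjusted p of 0.05 with limma. Of all 1517 events 856 varied, 0 passed after adjustment and 47 had an unadjusted p under 0.05. The event of the window with the lowest p was in max, a partner of the transcription factor Myc, with 39.2, 57.3 and 61.2% inclusion in the mutant libraries, against 63.8, 72.9 and 63.9% inclusion in the wild type ones. The mutant libraries were all lower, and the unadjusted p was 0.151.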

How the data were processed

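The authors deposited FPKM of 23354 genes, with Ensembl identifiers, positions and annotation, and lists of splicing events with transcript FPKM by library. Per the submitters' processing notes DESeq2 and GRCz11 were used. The sources used here do not give the aligner, the counter, the annotation release or the use of strand in counting. A gene name table held 350 of the 358 identifiers. The spans of 100 of the 358 genes, and of 8 of the 17 called, overlap another gene, whose reads may be shared. Of tested genes of the window, 8 of 49 with such an overlap were called, 16.3%, and 9 of 126 without it, 7.14%. That difference was not tested.

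Tests used limma 3.58.1 in R 4.3.3 on log2(FPKM + 1) over all genes that reached 1 FPKM in 3 or more of the 6 libraries: genotype as the one term, an intensity trend, two-sided, Benjamini-Hochberg adjustment over 11164 genes, threshold 0.05. Log2 fold changes are on that scale and understate changes of low genes; SE is the moderated standard error. A 2-fold call also needs a log2 fold change of 1 or more in size. Folds without a log are ratios of mean FPKM. Exon inclusion used limma without a trend on events with 1 FPKM or more over their forms in each library. Events with the same inclusion in every library were not fitted and entered the adjustment as unchanged.

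Within a gene the FPKM values are whole multiples of 1 read, and solving for depth and gene length gave whole reads within 0.05 for 100.0% of genes. The length was picked for each gene to give whole reads, so this share is no separate check. Of 22718 genes drawn with known reads 99.04% came back in full when the depths were given. Read totals are fixed only up to a whole factor per library, which was chosen from the steps of low genes. The floor of 3 reads covers counting error only. On counts drawn with known changes between these genotypes (11222 genes), the fit recovered 50% of 2-fold and 91.5% of 4-fold changes, and 5.04% of its calls were false. Far fewer genes were changed there than were called in the data. The adjustment depends on that share, so these rates may not carry over. Python 3.11.15, pandas 2.3.3, numpy 2.4.6 and matplotlib 3.10.9 were used.

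The window, lists and tests were chosen with earlier results of these data known. Named genes are capn3b and its 3 nearest genes on either side; every call within 2.5 Mb; up to 12 risen and 12 fallen genes with a symbol and no overlap of libraries; and the 8 highest mean FPKM. The clone-named genes si:dkey-5n18.1 and si:dkey-156m18.1, and the uncalled or unfiltered genes described last, were chosen after their values were seen. Alternatives were a pseudocount of 0.1, no filter, a filter of 5 FPKM, quantile normalization, median scaling, a block on the replicate number, robust moderation, voom on recovered reads, each library left out, smaller windows and genes without overlapping spans; the window with the genes left out was added after the data were seen. No sequences or promoter motifs were analysed here.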

Additional observations from a re-analysis of the deposited data

How the results depend on the processing

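Against 17 genes past the threshold (12 at least 2-fold, 11 higher, 6 lower), no filter gave 9, 7, 4 and 5. The 9 genes were 2.51% of the tested genes of the window in place of 9.71%. A filter of 5 FPKM gave 17 genes, which were 19.8% of the fewer genes tested. The share of the genes outside the window shifted in the same way with the filter. With no filter the window lay close to that share, and at 5 FPKM slightly above it, a difference that was not tested. Median scaling gave 11 lower and quantile normalization 10 lower. Genes whose span overlaps no other gave 9, 7, 7 and 2. A window of 5 Mb gave 9, 7, 4 and 5 genes and one of 2.5 Mb gave 5, 5, 2 and 3, as fewer genes were tested. With the genes left out by the rule, 11 were lower. By distance, no filter gave 3, 1, 1 and 4 genes from the nearest to the farthest bin, and between 5 and 7.5 Mb median scaling gave 6 genes and voom on recovered reads 5. The cause of these shifts was not tested, except where fewer genes were tested.

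With the replicate number as a block, 13 genes passed, 6 higher and 7 lower, with 6, 1, 3 and 3 by distance. Over all tested genes, same-numbered libraries did not deviate together (correlations of deviations -0.0448, -0.00964 and -0.0833). These values describe the genes as a whole, and a pairing of the libraries in single genes was not tested. Leaving out 1 library at a time gave 6 to 17 genes past the threshold, 6 to 13 at least 2-fold, 3 to 10 higher, 3 to 8 lower and 3.43% to 9.71% of tested genes. By distance these counts were 3 to 6, 1 to 4, 1 to 5 and 1 to 4. No named gene above the filter changed sign in an alternative that tested it, and those below it were fitted with no filter alone. Of the 17 calls, 5 held in every alternative that tested them, and 14 other tested genes passed in at least 1. Among those 5 are slc22a16 and si:dkey-156m18.1, which reached the filter through the wild type libraries alone. Most alternatives keep that filter, so that holding in them adds little for these genes. No exon inclusion event passed in any alternative.

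Depth limits the genes below the filter, where 1 to 3 reads decide a value, and 3 libraries a genotype limit changes under 2-fold.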
